A study of Homo sapiens with 6 samples.

Results

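The insulin-like growth factor (IGF) binding proteins, the IGF receptors and the ligand IGF2 were followed in RNA sequencing of MHCC97H, an established human hepatocellular carcinoma cell line. The group was chosen by gene symbol and holds 10 genes, IGFBP1 to IGFBP7, IGF1R, IGF2R and IGF2. These symbols fill 11 of the 58825 rows of the deposited table, since IGF2 has a second Ensembl identifier that is at 0 in every library. Of the 10 genes, 8 passed a filter on low counts that kept 19393 genes for testing, and IGFBP1 and IGFBP2 did not.

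The 6 libraries were 3 of cells with a control hairpin, labelled shControl 1, 2 and 3, and 3 of cells labelled as a PTBP1 knockdown, shPTBP1 1, 2 and 3. The study looked for gene expression changes and splicing events tied to PTBP1, an RNA-binding splicing regulator. The values used here are per gene and do not cover splicing. The labels name no hairpin sequence, time point or culture, so p-values measure the spread between these libraries, which may be technical. Library totals were 68704509 to 85317970 deposited counts, treated as estimated counts.

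In the RNA of these libraries the targeted gene itself did not differ beyond the spread. The study assessed its knockdown in this line separately, by western blot and RT-qPCR, which these values do not cover. PTBP1 had 21.2, 16.4 and 27.4 FPKM (fragments per kilobase of transcript per 1000000 fragments) in shControl 1, 2 and 3 and 17.3, 16.9 and 18.0 FPKM in shPTBP1 1, 2 and 3, and the groups overlapped. Its log2 fold change of shPTBP1 over shControl was -0.29 (adjusted p = 0.953, edgeR), so each direction given below is between the libraries as labelled. PTBP2, a paralog that PTBP1 is known to repress, was higher without overlap, at 3.8, 4.06 and 3.21 FPKM with shPTBP1 against 2.01, 1.88 and 0.61 FPKM (log2 fold change 1.32, unadjusted p = 0.0152, adjusted p = 0.718 from edgeR), and did not pass. Liver cell markers were also largely absent. Of 13 hepatocyte markers, 6 (ALB, AFP, TTR, APOB, TF and FGB) were listed at 0 FPKM in every library and 2, the keratins KRT8 and KRT18, averaged at least 1 FPKM. Transcripts of red blood cells were present in the libraries numbered 1 and 2, with a summed level of 7 markers of 594 to 990 FPKM, and were at 1.09 and 0.88 FPKM in shControl 3 and shPTBP1 3. In log2 CPM (counts per 1000000 counts), shControl 3 was also more like the shPTBP1 libraries (correlation of 0.984 to 0.985 across genes, and genes are not replicates) than like shControl 1 and 2 (0.976 and 0.98). Results for the members that rest on shControl 3 are therefore given with and without it. For PTBP1, PTBP2 and H19 only fits of all 6 libraries are given.

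IGF1 and IGF2 are secreted growth factors that bind IGF1R, a receptor tyrosine kinase that drives growth and survival through the insulin receptor substrates, PI3 kinase and AKT. IGF2R, also known as the cation-independent mannose 6-phosphate receptor, has no kinase, takes IGF2 up for degradation and carries newly made enzymes to the lysosome. The binding proteins are secreted and hold IGFs away from or near their receptor, and proteases such as PAPPA cut them and free the ligand. Normal liver is known as the main source of circulating IGF1 and as a strong source of IGFBP1, IGFBP2 and the acid-labile subunit.

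Promoter windows were found for 7 of the 10 genes in the RefSeq reference. The 250 bases before the start are shown for IGF1R and IGFBP4, the pair with the smallest p-values, and for IGF2R, whose level was steady. Capitals mark a TATA box (TATAAA), a GC box (GGGCGG) or an E-box (CACGTG), each searched on both strands, so that CCGCCC is a GC box on the other strand and CACGTG reads the same on both. All are on GRCh38.p14, plus strand, 5′ to 3′.
IGF1R, chr15:98648289-98648538: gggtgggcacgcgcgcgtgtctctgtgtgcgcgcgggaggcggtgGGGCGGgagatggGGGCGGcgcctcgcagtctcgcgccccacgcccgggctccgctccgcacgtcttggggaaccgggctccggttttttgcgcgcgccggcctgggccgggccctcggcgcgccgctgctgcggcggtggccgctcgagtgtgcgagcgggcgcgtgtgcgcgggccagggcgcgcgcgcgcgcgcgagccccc
IGFBP4, chr17:40443200-40443449: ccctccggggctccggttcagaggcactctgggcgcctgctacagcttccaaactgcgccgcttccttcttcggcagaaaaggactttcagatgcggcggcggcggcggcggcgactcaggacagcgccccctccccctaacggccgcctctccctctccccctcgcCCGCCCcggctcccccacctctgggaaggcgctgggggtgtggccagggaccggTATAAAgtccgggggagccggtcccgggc
IGF2R, chr6:159968832-159969081: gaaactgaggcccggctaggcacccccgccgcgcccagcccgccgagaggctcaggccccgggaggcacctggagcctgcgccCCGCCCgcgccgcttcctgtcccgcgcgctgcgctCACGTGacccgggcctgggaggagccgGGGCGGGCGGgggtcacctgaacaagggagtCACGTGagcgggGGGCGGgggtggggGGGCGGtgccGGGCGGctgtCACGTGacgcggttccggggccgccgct
IGFBP4 had a TATA box that begins 29 bases before the start, and 1 GC box. IGF1R had 2 GC boxes and neither of the other motifs. IGF2R had 6 GC boxes, of which a pair overlap, and 3 E-boxes that begin 132, 74 and 28 bases before the start. Of 35116 windows of this length in the reference, 10.7% held a TATA box, 42.6% a GC box and 6.34% an E-box, and 28 windows (0.0797%) held 3 or more E-boxes. A match is a description of the letters and not a measured binding site.

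No member passed an adjusted p of 0.05 in edgeR's quasi-likelihood test, 0 of 8, where 0.0309% of all genes did. At an unadjusted p under 0.05 there were 2 of 8 members, IGF1R and IGFBP4, both lower in shPTBP1, where 5.69% of all genes passed. That count was 1 in DESeq2 (IGFBP4), 1 with the replicate block (IGFBP4), 1 without shControl 1 or shControl 2 (IGFBP4), 1 without shPTBP1 1 (IGFBP3) and 0 without shPTBP1 2 or shPTBP1 3. In limma on log2(FPKM + 1) or log2(FPKM + 0.1) the count was 1 of 6 tested members (IGF1R). Without the filter, limma on log2(FPKM + 1) gave 2 of 10 (IGF1R and IGFBP1). IGF1R and IGFBP4 were also the tested members whose groups did not overlap in CPM, both lower in shPTBP1. Over all genes, 5.46% were lower without overlap and 11.9% did not overlap in either direction. The median log2 fold change of the 8 was -0.04, with 4 above and 4 below 0, and that of all genes tested was -0.01.

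The levels spanned the whole range from undetected to abundant. In FPKM, a level per transcript length, the order of the means over 6 libraries was IGFBP7 (88.1), IGFBP3 (52.4), IGFBP4 (21.6), IGF2R (15.6), IGF1R (5.92), IGFBP6 (4.68) and IGFBP5 (0.578), followed by IGF2, IGFBP2 and IGFBP1 at 0.035 or below. Ranges of neighbours in this order did not overlap between IGF2R and IGF1R, between IGFBP6 and IGFBP5 and between IGFBP5 and IGF2, and overlapped for the other pairs. IGFBP7 exceeded IGFBP3, and IGFBP3 exceeded IGFBP4, in each of the 6 libraries although their ranges overlapped.

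**Figure D1:**
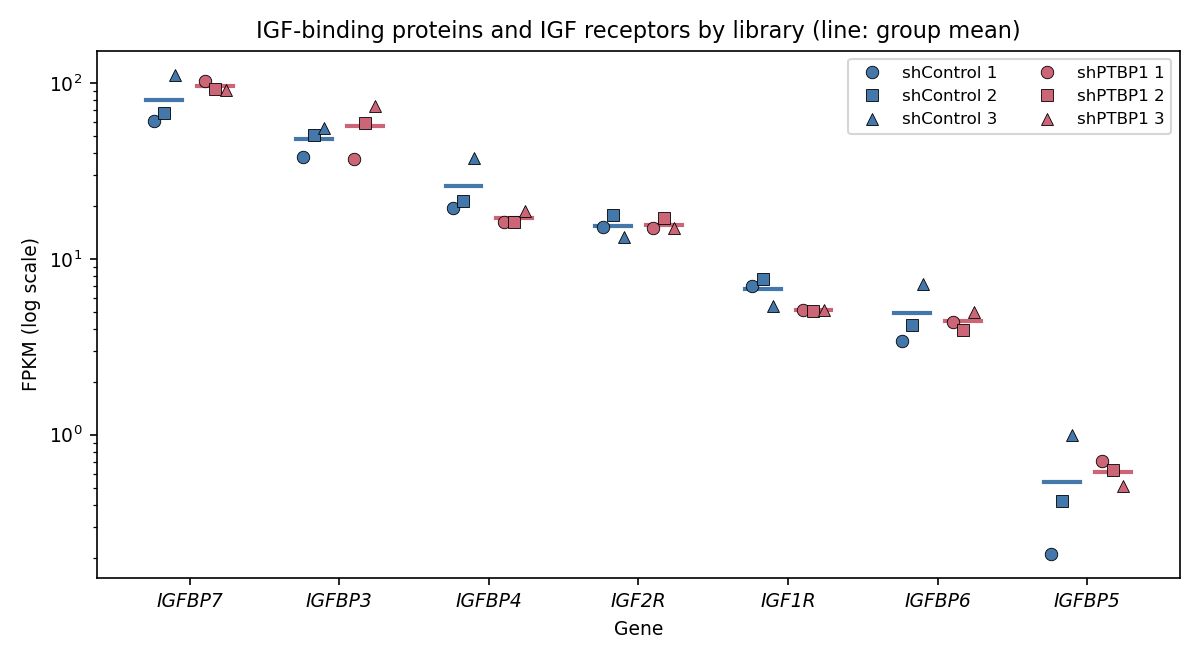
FPKM on a log scale for the 7 members with a mean above 0.5 FPKM, 1 point per library (circle, square and triangle for libraries 1, 2 and 3) and a line at each group mean. IGFBP7 and IGFBP3 lie highest, and the groups are apart for IGFBP4 and IGF1R, while shControl 3 lies above the other shControl libraries for IGFBP7, IGFBP4, IGFBP6 and IGFBP5.

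The ligand was close to absent. IGF2 (ENSG00000167244, chromosome 11 of hg38, 2129112 to 2139389, minus strand), the fetal growth factor, had 33, 17 and 32 counts in shControl 1, 2 and 3 and 0, 20 and 23 counts in shPTBP1 1, 2 and 3. These are levels of at most 0.06 FPKM, and the groups overlapped, with shPTBP1 1 alone at 0. The fitted log2 fold change of -0.97 had a 95% interval from -3.64 to 1.7 (adjusted p = 0.978, edgeR), so changes of several fold in either direction were not detectable at this depth. INS and the INS-IGF2 readthrough had 0 counts in every library, and IGF1 had 1 count in shControl 1 and 0 in the others. H19, the non-coding RNA that neighbours IGF2 at the imprinted locus, was by contrast abundant, with 50.7, 72.5 and 132 FPKM in shControl and 121, 115 and 184 FPKM in shPTBP1. The H19 groups overlapped through shControl 3, and its log2 fold change was 0.75 (standard error, SE, 0.35, unadjusted p = 0.0688 and adjusted p = 0.897 by edgeR).

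IGF1R, the signalling receptor (ENSG00000140443, chromosome 15, 98648539 to 98964530, plus strand), had 7.01, 7.74 and 5.41 FPKM in shControl 1, 2 and 3 and 5.15, 5.07 and 5.15 FPKM in shPTBP1 1, 2 and 3. Each shPTBP1 library lay below each shControl library, but shControl 3 stood at 87.6 CPM against 87.3 CPM in the highest shPTBP1 library. The mean was 111 ± 20.6 CPM for shControl and 85.8 ± 1.56 CPM for shPTBP1 (SD, n = 3 each). The log2 fold change was -0.37 (95% interval -0.72 to -0.01, SE 0.15, unadjusted p = 0.0434, adjusted p = 0.870, edgeR), which did not pass. Without shControl 3 it was -0.51 (adjusted p = 0.0781) and in the libraries numbered 1 and 2 it was -0.52 (adjusted p = 0.110).

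IGF2R, the mannose 6-phosphate receptor (ENSG00000197081, chromosome 6, 159969099 to 160111504, plus strand), had 15.2, 17.9 and 13.4 FPKM in shControl and 15.0, 17 and 15.0 FPKM in shPTBP1. Its lowest and highest libraries were both shControl, and it varied least of the expressed members, 1.34-fold from lowest to highest. The log2 fold change was 0.04 (95% interval -0.27 to 0.36, adjusted p = 0.993, edgeR). AIRN, the antisense RNA within IGF2R, was at 0 in every library.

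Set side by side in FPKM, the receptors differed in their ratio between the groups. IGF2R stood at 2.17, 2.31 and 2.47 times IGF1R for shControl 1, 2 and 3, and at 2.91, 3.36 and 2.91 times for shPTBP1 1, 2 and 3. Every shPTBP1 library had the higher ratio, with group means of 2.32 ± 0.147 and 3.06 ± 0.26 (SD, n = 3 each). The exact permutation test, two-sided, gave p = 0.1, the smallest that 3 against 3 libraries allow, and 0.15 after adjustment over the 3 summary measures tested in this way. The ratio was not a planned measure and contains IGF1R, whose groups were already apart, so its p adds no support. The difference was 0.594 to 0.82 without each library in turn.

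**Figure D2:**
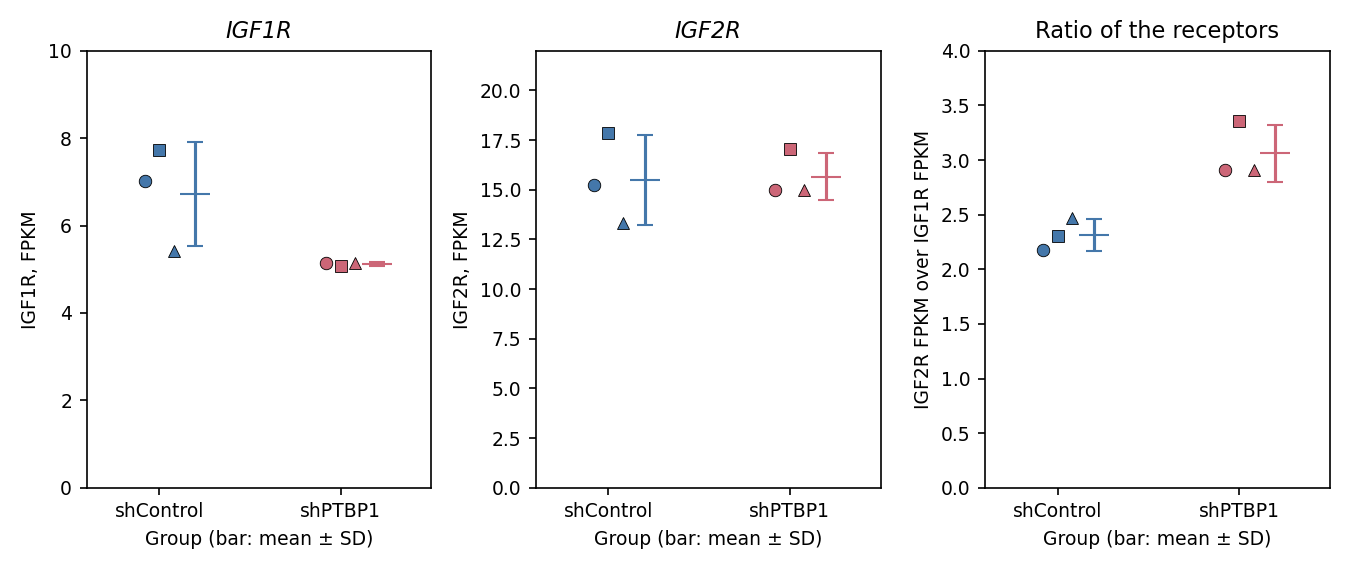
FPKM of IGF1R and of IGF2R and the ratio of IGF2R to IGF1R, 1 point per library (circle, square and triangle for libraries 1, 2 and 3), with the mean ± SD of each group of 3 beside the points. The ratio is higher in each shPTBP1 library (2.91 to 3.36) than in each shControl library (2.17 to 2.47), IGF1R is lower and the IGF2R groups overlap.

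Among the 5 binding proteins tested, IGFBP4 was the one whose groups were apart. IGFBP4 (ENSG00000141753, chromosome 17, 40443450 to 40457725, plus strand), a largely inhibitory binding protein and the chief substrate of PAPPA, had 19.6, 21.3 and 37.5 FPKM in shControl 1, 2 and 3 and 16.2, 16.2 and 18.6 FPKM in shPTBP1 1, 2 and 3. All 3 shPTBP1 libraries were lower than all 3 shControl libraries, and shControl 3 was 1.79 times the mean of shControl 1 and 2 in CPM. The mean was 67.6 ± 24.5 CPM for shControl and 45.0 ± 4.25 CPM for shPTBP1 (SD, n = 3 each). The log2 fold change was -0.59 (95% interval -1.16 to -0.01, SE 0.24, unadjusted p = 0.0457, adjusted p = 0.872, edgeR), which did not pass. Without shControl 3 it was -0.25 (unadjusted p = 0.0755, adjusted p = 0.353) and in the libraries numbered 1 and 2 it was -0.33 (adjusted p = 0.222). IGFBP4 appears in a figure of the study among genes selected to check this RNA-seq by RT-qPCR, so its place here is not independent evidence of its direction.

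IGFBP7 (ENSG00000163453, chromosome 4, 57030773 to 57110385, minus strand), a low-affinity relative of the family found in the extracellular matrix, was the most abundant member. It had 61.2, 67.4 and 112 FPKM in shControl and 103, 93.0 and 91.8 FPKM in shPTBP1. The groups overlapped because shControl 3 was the highest of the 6 libraries, while shControl 1 and 2 were the lowest. The log2 fold change was 0.29 (95% interval -0.22 to 0.81, SE 0.22, adjusted p = 0.957, edgeR). Without shControl 3 it was 0.60 (unadjusted p = 0.000782, adjusted p = 0.0733), the smallest adjusted p of any member in any fit, and in the libraries numbered 1 and 2 it was 0.62 (adjusted p = 0.105). The far end of IGFBP7 overlaps POLR2B on the other strand, which had 21.9 to 28.4 FPKM, and the sources do not say whether strand was used in counting, so the overlap could hold reads of either gene.

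IGFBP3 (ENSG00000146674, chromosome 7, 45912245 to 45921274, minus strand), the main carrier of IGFs in blood and a known target of p53, had 38.1, 50.5 and 55.4 FPKM in shControl and 37.1, 59.3 and 74.1 FPKM in shPTBP1. The groups overlapped, and within shPTBP1 the level varied 2.00-fold. The log2 fold change was 0.28 (95% interval -0.33 to 0.89, SE 0.26, adjusted p = 0.974, edgeR). It was 0.51 (unadjusted p = 0.0384) without shPTBP1 1 and 0.03 without shPTBP1 3.

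IGFBP6, which prefers IGF2 over IGF1, had 3.41, 4.23 and 7.16 FPKM in shControl and 4.36, 3.94 and 5.00 FPKM in shPTBP1. The groups overlapped, with the lowest and the highest library both in shControl. Its log2 fold change was -0.12 (95% interval -0.80 to 0.56, adjusted p = 0.992, edgeR), and turned to 0.23 without shControl 3.

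IGFBP5, which binds matrix and bone mineral, was low, with 0.21, 0.42 and 0.99 FPKM in shControl and 0.71, 0.63 and 0.51 FPKM in shPTBP1. It varied most of the expressed members, 4.71-fold, and that range was set by shControl 1 and shControl 3. Its log2 fold change was 0.23 (95% interval -0.97 to 1.43, adjusted p = 0.990, edgeR), 0.98 without shControl 3 (unadjusted p = 0.0285, adjusted p = 0.237) and -0.15 without shControl 1.

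IGFBP1 and IGFBP2, both products of normal liver, were at the edge of detection. IGFBP1 had 0 counts in each shControl library and 4 counts in each shPTBP1 library, and IGFBP2 had 0, 0 and 8 counts in shControl and 12, 0 and 11 counts in shPTBP1. A count of 0 allows up to 3 counts, 0.0352 to 0.0437 CPM in these libraries, for counting error only, and 32.6% to 34.4% of low counts were multiples of 4, so no fold is given for either. Both lie beside a better expressed relative on the opposite strand. IGFBP1 is separated from IGFBP3 by 18584 bases on chromosome 7, and IGFBP2 from IGFBP5 by 7668 bases on chromosome 2.

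Taken as a sum, the binding proteins overlapped between the groups, while the share of IGFBP4 in that sum did not. They summed to 122, 144 and 213 FPKM for shControl 1, 2 and 3, and to 162, 173 and 190 FPKM for shPTBP1 1, 2 and 3. The groups overlapped at 160 ± 47.2 and 175 ± 14.3 (SD, n = 3 each, exact permutation p = 0.7, two-sided), and the difference of 15.3 was 41.8 without shControl 3 and -3.33 without shControl 1. IGFBP7 made up 46.9% to 63.9% of the sum and IGFBP3 22.9% to 39.0%.

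IGFBP4 made up 16.0%, 14.8% and 17.6% of the sum for shControl 1, 2 and 3, against 10%, 9.34% and 9.80% for shPTBP1 1, 2 and 3. Every shPTBP1 library had the smaller share, and shControl 3, which stood apart in the level of IGFBP4, had a share near that of shControl 1 and 2. The means were 16.1% ± 1.41 and 9.71% ± 0.335 (SD, n = 3 each, exact permutation p = 0.1, two-sided, the smallest possible, and 0.15 after adjustment over 3 measures). The share was not a planned measure either and contains IGFBP4, whose groups were already apart, so its p adds no support. The difference was -5.68 percentage points without shControl 3 and reached -7.08 without shControl 2. A share falls when the other members rise as well as when IGFBP4 falls, and the share alone does not tell these apart.

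**Figure D3:**
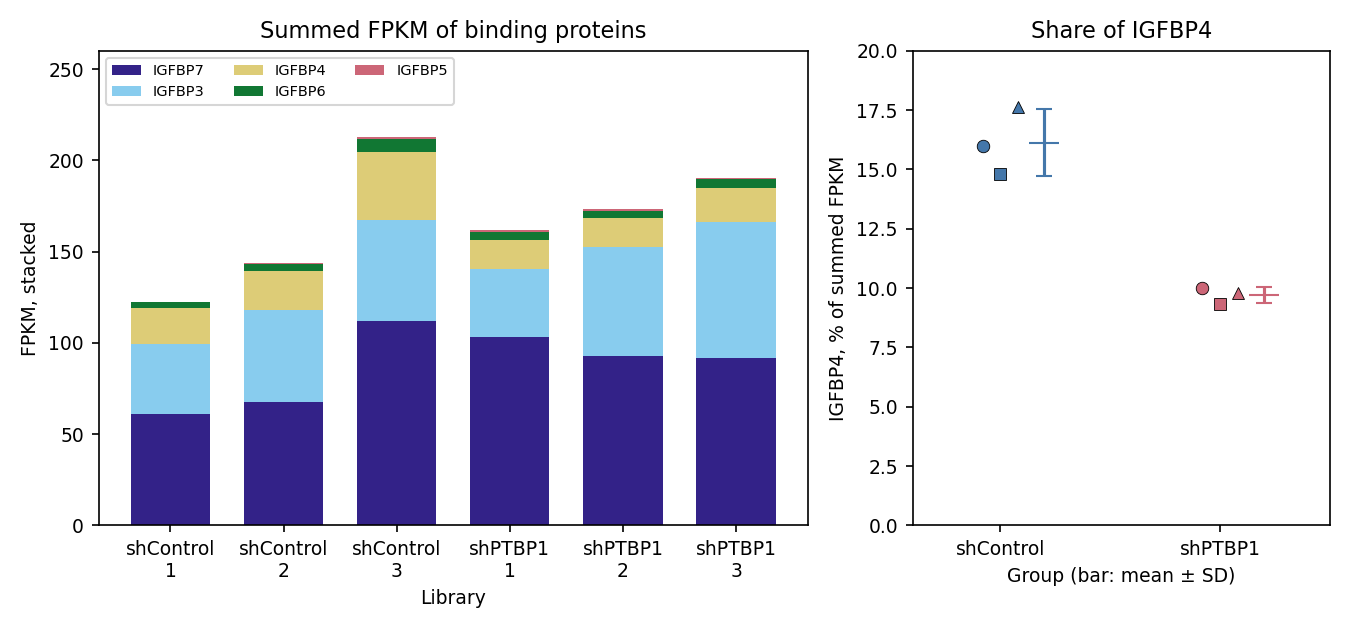
Left, FPKM of the 5 detected binding proteins stacked for each library. Right, IGFBP4 as a percentage of the summed FPKM of IGFBP1 to IGFBP7, 1 point per library with the mean ± SD of each group of 3. The sum runs from 122 to 213 FPKM in shControl and 162 to 190 in shPTBP1, and the IGFBP4 share is 14.8% to 17.6% against 9.34% to 10%.

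The highest library was shControl 3 for IGFBP4, IGFBP5, IGFBP6 and IGFBP7, and it was the lowest for IGF2R. Compared with the mean of shControl 1 and 2 in CPM, shControl 3 held 3.05 times the IGFBP5, 1.83 times the IGFBP6, 1.7 times the IGFBP7 and 1.22 times the IGFBP3, but 0.717 times the IGF1R and 0.787 times the IGF2R. On the log2 scale it was nearer to the shPTBP1 mean than to shControl 1 and 2 for 6 of 8 members, where 65.7% of all genes with a value were, and nearer to shControl 1 and 2 for IGFBP4 and IGF2. In the libraries numbered 1 and 2 alone, 4 of 8 members (IGF1R, IGFBP4, IGFBP5 and IGFBP7) had an unadjusted p under 0.05, where 17.7% of all genes did. Without shControl 3 there were 3 of 9 tested (IGF1R, IGFBP5 and IGFBP7), where 16.6% of all genes did. None passed the adjusted threshold in either fit.

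**Figure D4:**
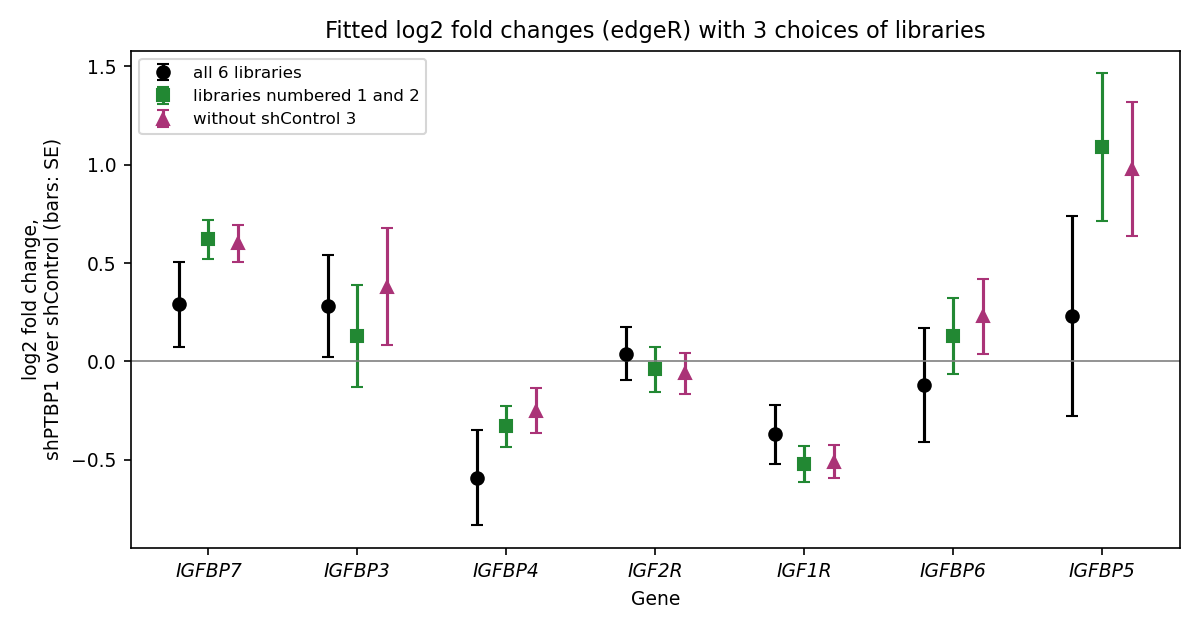
Log2 fold change of shPTBP1 over shControl from edgeR with its standard error (SE) for 7 members, from all 6 libraries (circles), the libraries numbered 1 and 2 (squares) and all but shControl 3 (triangles). IGF1R and IGFBP4 lie below 0 in each fit, IGFBP7 moves from 0.29 to 0.60 without shControl 3, and IGFBP6 and IGF2R change sign near 0.

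Markers of other cells moved in part with the groups or libraries. Of 8 fibroblast markers, COL1A1, COL3A1 and PDGFRB averaged at least 1 FPKM, COL1A2 was at 0 and DCN, LUM, PDGFRA and THY1 stayed under 0.1 FPKM. Their sum was 29.4 to 37.2 FPKM in shControl and 40.1 to 54.4 FPKM in shPTBP1, without overlap. That gap came from COL3A1 (20.1 to 25.6 FPKM against 32.4 to 43.2), while COL1A1 and PDGFRB overlapped, and its part in the binding protein levels was not tested. Of 5 endothelial markers none averaged 1 FPKM. They summed to 0.81, 0.19 and 1.73 FPKM in shControl 1, 2 and 3 and to 1.1, 0.27 and 1.24 FPKM in shPTBP1 1, 2 and 3. The lowest sum of each group was thus in library 2. Of 8 neutrophil and monocyte markers, 3 averaged at least 1 FPKM, with sums of 14.7 to 25.9 FPKM in libraries 1 and 2 of either group and 0.13 and 0.12 FPKM in shControl 3 and shPTBP1 3, and the 7 lymphocyte markers summed to at most 0.87 FPKM. With bulk RNA, fewer cells of a type and less RNA per cell cannot be told apart.

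Other genes of the IGF system, a list of 50 of which 39 were tested, showed their largest differences among the proteases that cut binding proteins. No gene of the list passed the adjusted threshold. At an unadjusted p under 0.05 there were 6 of 39 (15.4%, against 5.69% of all genes). Of these 3 were higher (PAPPA, CTSD and ADAM12) and 3 lower (PAPPA2, PDPK1 and GRB2). The median log2 fold change was 0.06 against -0.01 for all genes. In CPM, 6 of the 39 were higher without overlap (INSR, PAPPA, HTRA1, CTSD, ADAM12 and SHC1). Another 4 were lower without overlap (PAPPA2, GRB2, PIK3CB and PDPK1), where 11.9% of all genes did not overlap in either direction.

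The related metalloproteinases PAPPA and PAPPA2 had fold changes of opposite sign, each with groups that did not overlap. PAPPA2, which cuts IGFBP3 and IGFBP5, had 1.06, 1.56 and 1.51 FPKM in shControl 1, 2 and 3 and 0.29, 0.36 and 0.25 FPKM in shPTBP1 1, 2 and 3. All shPTBP1 libraries were far below all shControl libraries, and shControl 3 lay with shControl 2. Its log2 fold change was -2.17 (SE 0.22, unadjusted p = 1.986e-05, adjusted p = 0.0550, edgeR), which just missed the threshold, and it was -2.01 in the libraries numbered 1 and 2 (adjusted p = 0.0745). PAPPA2 passed without shControl 3 (adjusted p = 0.0349, log2 fold change -2.11), with counts divided by 4 (adjusted p = 0.0483) and in DESeq2 (adjusted p = 1.5e-15). It did not pass with the replicate block (adjusted p = 0.416), with number 3 as a covariate (0.155), in limma without the filter (0.317), without shControl 1 (0.0652) or shControl 2 (0.266), or without any 1 shPTBP1 library (0.159 to 0.304). PAPPA, which cuts IGFBP4 in the presence of IGF, had 1.96, 2.63 and 2.91 FPKM in shControl and 3.46, 3.73 and 3.98 FPKM in shPTBP1. Each shPTBP1 library was the higher, and the log2 fold change was 0.61 (SE 0.16, unadjusted p = 0.00636, adjusted p = 0.581, edgeR). The inhibitors of these proteases, STC1 and STC2, had overlapping groups, with STC2 at 3.36 to 5.83 FPKM in shControl and 3.31 to 4.19 FPKM in shPTBP1.

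Of the other proteases, cathepsin D (CTSD), a lysosomal enzyme, was at 57.4, 31.0 and 54.4 FPKM in shControl and 65.5, 70.8 and 70.4 FPKM in shPTBP1, with a log2 fold change of 0.56 (adjusted p = 0.869, edgeR) and groups that did not overlap. HTRA1, a secreted serine protease, was at 36.2, 39.0 and 45.3 FPKM in shControl and 48.2, 45.4 and 45.5 FPKM in shPTBP1, with a log2 fold change of 0.24 (adjusted p = 0.895). ADAM12 was near absent, at most 0.01 FPKM in shControl and 0.05 to 0.10 FPKM in shPTBP1, and its fitted log2 fold change of 4.33 rests on libraries at 0. ADAM9 overlapped at 18.1 to 22.5 FPKM. The collagenase MMP1 differed by library number, at 0.02 and 0 FPKM in shControl 2 and shPTBP1 2 and 2.89 to 5.38 FPKM in the other 4 libraries.

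Downstream of the receptor, 2 genes passed the unadjusted threshold. PDPK1, the kinase that activates AKT, had 3.99, 1.5 and 3.23 FPKM in shControl and 1.00, 1.04 and 1.02 FPKM in shPTBP1, lower in each shPTBP1 library (log2 fold change -1.48, SE 0.34, adjusted p = 0.457, edgeR). GRB2, the adaptor to RAS, was at 36.9 to 39.7 FPKM in shControl and 30.2 to 35.0 FPKM in shPTBP1 (log2 fold change -0.24, adjusted p = 0.873). The adaptors SHC1 (0.25), IRS2 (0.01), SOS1 (0.11) and IRS1 (0.29), the phosphatase PTPN1 (-0.06), the feedback inhibitor SOCS3 (0.25) and the PI3 kinase subunit PIK3CB (-0.18) had log2 fold changes between -0.18 and 0.29, and none had an unadjusted p under 0.05.

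INSR, the insulin receptor, was expressed below IGF1R, at 1.20 to 1.46 FPKM in shControl and 1.44 to 1.69 FPKM in shPTBP1 (log2 fold change 0.24, adjusted p = 0.953, edgeR). The IGF2 mRNA-binding proteins IGF2BP1, IGF2BP2 and IGF2BP3, at 0.98 to 7.80 FPKM, had overlapping groups and log2 fold changes of 0.21, 0.30 and -0.09. The mannose 6-phosphate sorting genes M6PR, GGA1, GGA2 and GGA3 all had overlapping groups and negative log2 fold changes, from -0.18 to -0.01, with M6PR itself spread from 12 to 55.4 FPKM over the 6 libraries. The acid-labile subunit IGFALS stayed at or below 0.06 FPKM and IGFBPL1 was at 0.

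**Figure D5:**
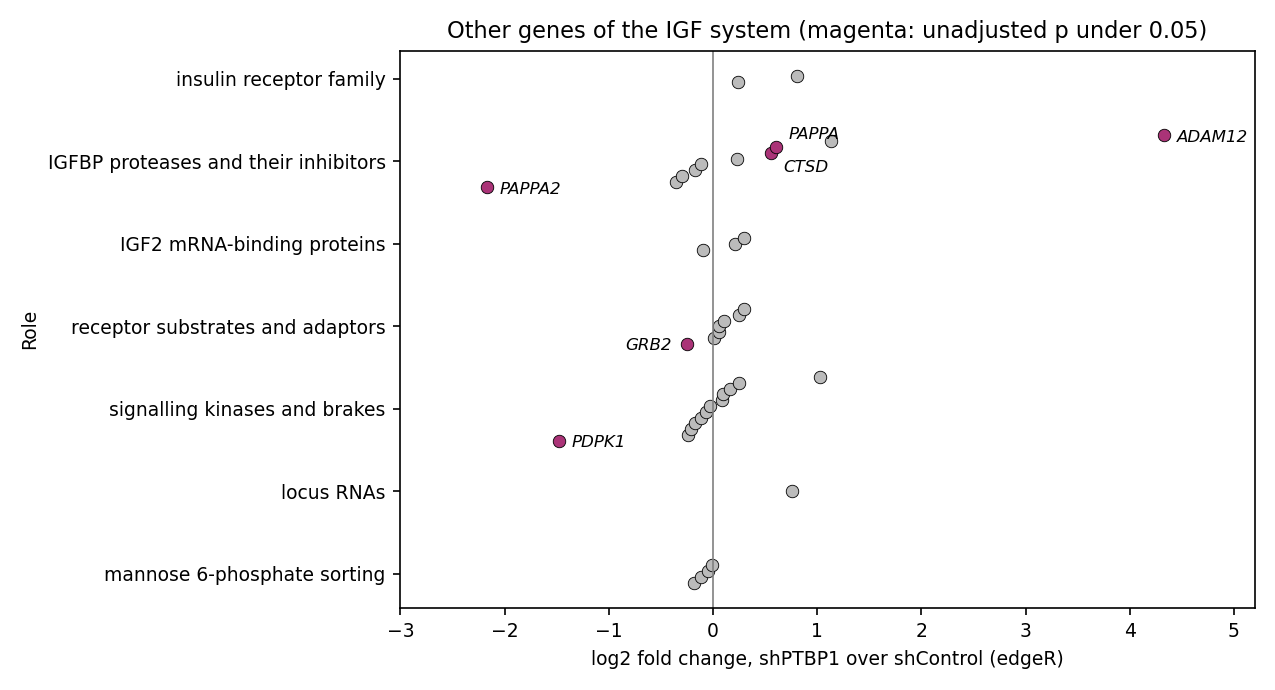
Log2 fold change of shPTBP1 over shControl (edgeR) for the 39 tested genes of the IGF system list, by role, with those at an unadjusted p under 0.05 in magenta and named. PAPPA2 (-2.17) and PDPK1 (-1.48) lie far below 0 and ADAM12 (4.33, near absent) far above, and no gene passed the adjusted threshold.

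Among 12018 genes with a mean of at least 1 FPKM, those whose log2(CPM + 1) over the 6 libraries was most like IGF1R were ENSA (Pearson r = 0.999), RBM38 (0.996) and the pseudogene ST13P4 (0.993). Those most like IGFBP4 were MEOX1 (0.996), a gene labelled AC003665 (identifier ENSG00000006025, 0.991) and MMS19 (0.990). Over so many genes and 6 points such values describe the pattern only, which for the IGFBP4 set is a peak in shControl 3. For example, ENSA stood at 212, 228 and 159 CPM in the shControl libraries and at 156, 150 and 156 CPM in shPTBP1, highest in shControl 1 and 2 as IGF1R was. Among the members at this level, the most negative correlation was that of IGFBP7 with IGF1R (r = -0.922). The most positive was that of IGFBP4 with IGFBP6 (r = 0.789), both of which peaked in shControl 3. These pairs were picked as the extremes, over 6 libraries of both groups.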

How the data were processed

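RNA of 3 shControl and 3 shPTBP1 libraries of MHCC97H cells was sequenced by the authors after poly(A) selection and a dUTP strand-marking protocol. Their processing notes name cutadapt 1.9, FastQC, HISAT2 2.2.1, StringTie and hg38, and counting settings are not given in the sources used here. The authors deposited FPKM and whole-number counts per gene and library. The deposited counts were treated as estimated counts because many low ones are multiples of 4, so the depth in fragments is not known. Gene positions and strands were those of the deposited table.

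The test was that of edgeR 4.0.16 in R 4.3.3, quasi-likelihood F test, TMM scaling (factors 0.977 to 1.02) and its filter on low counts, without covariates, with Benjamini-Hochberg adjustment over all genes tested. The standard error is the absolute log2 fold change divided by the square root of F. Alternatives were DESeq2 1.42.0, its size factors in edgeR, no filter, limma 3.58.1 on log2(FPKM + 1) and with a pseudocount of 0.1, a replicate block, libraries 1 and 2, number 3 as a covariate, counts divided by 4, counts summed over identifiers and leaving out each library. The receptor ratio, the IGFBP4 share and the permutation tests were not in the plan. Leaving out libraries for the ratio and the share was added after seeing the data. The steps were tested on simulated data. Tables and figures were made with Python 3.11.15, pandas 2.3.3, numpy 2.4.6 and matplotlib 3.10.9.

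The members, gene lists and tests were chosen with earlier results of these data known. The text names every member, PTBP1, list genes with an unadjusted p under 0.05 plus up to 4 per role with the highest FPKM, and the 3 genes most like the 2 members with the smallest p. POLR2B and cell markers were named for checks, and STC1, AIRN and other genes at or near 0 after their values were seen. A result that the rule would name is not reported here. Beyond gene symbols, positions and strands, annotation columns of the table were not used for the text. Same-numbered libraries deviated together at correlations of -0.0658, 0.117 and 0.0186 and were not treated as pairs.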

Additional observations from a re-analysis of the deposited data

How the results depend on the processing

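No member passed the adjusted threshold in any of the 17 alternative fits. Of 131 fold changes of members under these, 125 kept their direction and side of the threshold and 6 changed sign. These were IGFBP6 in libraries 1 and 2 (0.13) and without shControl 3 (0.23), IGFBP5 without shControl 1 (-0.15), and IGF2R in libraries 1 and 2 (-0.04), without shControl 3 (-0.06) and without shPTBP1 2 (-0.01). Without each library in turn IGFBP5 ranged from -0.15 to 0.98, IGFBP6 from -0.32 to 0.23 and IGF2R from -0.06 to 0.16. The cause was not tested.

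Of the IGF system list 0 genes passed at first, 3 passed in DESeq2 (PAPPA2, PDPK1 and ADAM12), 1 with counts divided by 4 (PAPPA2) and 0 to 2 without each library in turn, the 2 (PAPPA2 and ADAM12) without shControl 3. The difference in summed binding protein FPKM was 34.2 in libraries 1 and 2 and -3.33 to 41.8 without each library. IGFBP1, at 0 in shControl, had an unadjusted p under 0.05 in edgeR and limma without their filters.

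With the replicate block 0 members and 0 of the list genes passed, and IGF1R was at -0.35 and IGFBP4 at -0.53. Over all genes 6 passed at first, 167 in DESeq2, 63 in libraries 1 and 2, 136 without shControl 3, 0 with the block, 3 with number 3 as a covariate and 1 in limma without its filter. Without each of the other libraries 2 to 5 passed. With 3 libraries a group, of which shControl 3 stands apart, changes in the members of the size seen for IGFBP7 without shControl 3 did not pass, and IGF2, IGFBP1 and IGFBP2 were too low for a fold change.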
